A study of Mus musculus with 12 samples.

Results

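The HOX cluster genes were followed through doxorubicin treatment of cultured cardiac myoblasts, alone and together with 2 protective agents. They were taken as all protein-coding genes of the deposited table whose symbol is Hoxa, Hoxb, Hoxc or Hoxd followed by a number, which gave 40 entries with 39 symbols (Hoxd4 is listed under 2 identifiers) among 22058 protein-coding and 54345 genes in all. The HOXA cluster held 11 entries, HOXB 10, HOXC 9 and HOXD 10. Every entry belonged to 1 of the 4 clusters, which lie in GRCm38 on chromosome 6 (HOXA, minus strand), at chr11:96194316-96368256 (HOXB, plus strand), at chr15:102921103-103036852 (HOXC, plus strand) and at chr2:74668310-74765142 (HOXD, plus strand).

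H9c2 cells, a clonal line from embryonic heart labelled as wild-type myoblasts, were either left untreated (Unt) or given doxorubicin (DOX), doxorubicin plus dexrazoxane (D_DXZ), or doxorubicin plus the magnesium hexacyanoferrate nanocatalyst MgHCF (D_MgHCF), each for 6 h. Each group had 3 mRNA libraries, 12 in total. All 3 treated groups received doxorubicin, and no group here received a protective agent alone. Doxorubicin is an anthracycline that intercalates into DNA and blocks topoisomerase II, dexrazoxane is an iron chelator and topoisomerase II inhibitor, and MgHCF captures ferrous ions. The doses in these cells are not given in the sources used here, the labels name the organism as Mus musculus while the study describes the line as rat, and nothing says whether the libraries came from separate cultures, so that p-values measure the spread between libraries, which may be technical.

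HOX genes encode homeodomain transcription factors that give cells along the head-to-tail axis and the limbs their positional identity. Within a cluster the genes stand in the order in which they are used: the low-numbered (anterior) genes are switched on first and nearest the head, the high-numbered (posterior) genes last and nearest the tail, and genes of equal number in different clusters are paralogs. Many adult and cultured mesenchymal cells keep a part of this code, with a fixed set of HOX genes active and the rest silenced by Polycomb complexes, and anterior HOX genes mark some of the progenitors of the heart. HOX proteins bind DNA together with cofactors of the PBX, MEIS and PKNOX families.

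The stretches of DNA before the start sites of Hoxa5, Hoxa6 and Hoxa2 are shown because these genes were the most active members and moved in different directions although they lie in the same cluster, Hoxa5 and Hoxa6 next to each other. They are RefSeq sequences of the mouse reference (GRCm38.p6), and all read along the minus strand of chromosome 6. The Hoxa5 window (chr6:52204588-52204837) and the Hoxa2 window (chr6:52164832-52165081) are the 250 bases before the start. The Hoxa6 window (chr6:52208723-52208922) was limited to the 200 bases that precede any annotated exon of that gene. Capitals mark CCAAT boxes (CCAAT), GC boxes (GGGCGG) and PBX-HOX sites (TGATNNAT) on either strand.
Hoxa5: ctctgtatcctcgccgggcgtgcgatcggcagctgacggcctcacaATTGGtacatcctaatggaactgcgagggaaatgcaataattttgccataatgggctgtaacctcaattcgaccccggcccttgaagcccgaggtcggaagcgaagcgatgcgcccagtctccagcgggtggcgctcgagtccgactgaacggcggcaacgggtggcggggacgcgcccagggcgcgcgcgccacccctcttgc
Hoxa6: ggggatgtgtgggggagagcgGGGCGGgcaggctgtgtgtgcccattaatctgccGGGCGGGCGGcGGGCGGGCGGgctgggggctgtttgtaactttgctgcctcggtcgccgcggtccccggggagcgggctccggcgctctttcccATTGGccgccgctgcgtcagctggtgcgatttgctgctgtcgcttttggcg
Hoxa2: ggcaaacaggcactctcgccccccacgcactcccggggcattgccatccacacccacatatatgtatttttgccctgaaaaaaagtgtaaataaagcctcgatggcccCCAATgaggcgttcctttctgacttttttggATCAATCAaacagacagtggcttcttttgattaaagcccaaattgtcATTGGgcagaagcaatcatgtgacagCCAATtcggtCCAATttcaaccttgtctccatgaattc
The Hoxa5 window held 28 CpG dinucleotides and 1 CCAAT box. The Hoxa6 window held 22 CpG, 1 CCAAT box and 5 GC boxes, of which some overlap each other. The Hoxa2 window had 6 CpG, 4 CCAAT boxes and 1 PBX-HOX site. Among 32851 promoter windows of 250 bases, 33.8% held a CCAAT box, 32.7% a GC box and 7.68% a PBX-HOX site, and the median window held 6 CpG. The 24 windows that matched a HOX gene (22 genes) had a median of 12.5 CpG. TATA boxes (TATAAA) were absent from the 3 windows shown and present in 12.4% of all windows, and 0 of the 24 HOX windows held the DR5 retinoic acid element, which was found in 0.00913% of all windows. A match is only a run of letters and was not tested for binding.

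The libraries held 16626514 to 19365119 reads on genes. Levels are given in the authors' FPKM, in which read pairs are divided by gene length and by a library factor, so that genes can be compared with each other. Because the cells are described as rat and the genes are mouse genes, how well a gene's own sequence matched may enter its level. Correlations between libraries of the same group were 0.9895 or higher in Unt, DOX and D_DXZ and 0.942 to 0.984 in D_MgHCF, whose libraries thus differed more from each other. More genes had reads in D_MgHCF (23368 to 25456 per library) than in Unt (20160 to 20660), DOX (18530 to 20381) or D_DXZ (19413 to 19662). Of the markers examined, 6 of 8 for fibroblasts and mesenchyme reached a mean of 1 FPKM in Unt, but only 2 of 12 for myoblasts and skeletal muscle (Des and Pax3) and 1 of 12 for heart muscle (Gata4), while 3 of 4 neural markers did (Pax6, Tubb3 and Map2). The cardiac factor Tbx5 was listed at 0 in all 12 libraries. Summed over the fibroblast markers, libraries had between 505 and 577 FPKM in Unt, between 1594 and 2029 in DOX, between 1222 and 1592 in D_DXZ, and between 299 and 560 in D_MgHCF. Markers of endothelium summed to at most 0.0963 FPKM in Unt, 0.200 in DOX and 0.0732 in D_DXZ, and to between 0.263 and 1.08 in D_MgHCF. Those of epithelium summed to at most 0.154 FPKM in Unt, 0.233 in DOX and 0.201 in D_DXZ, and to between 0.425 and 1.63 in D_MgHCF. Of 6 blood markers, 1 (Cd68) reached a mean of 1 FPKM in Unt. The blood markers summed to between 0.939 and 1.26 FPKM in Unt and between 2.75 and 3.78 in DOX. In D_DXZ they summed to between 4.11 and 4.39 FPKM, and in D_MgHCF to between 2.47 and 5.38. The cardiac markers summed to between 10.8 and 12.1 FPKM in Unt and between 17.2 and 26.8 in D_MgHCF. Their sums were 3.45 to 6.18 FPKM in DOX and 3.48 to 4.88 in D_DXZ. The neural markers summed to between 18.1 and 18.4 FPKM in Unt and between 38.1 and 42.8 in D_MgHCF. Their sums were 23.1 to 24.9 FPKM in DOX and 16.8 to 24.0 in D_DXZ. The part of these shifts in the HOX values was not tested. In bulk RNA a smaller number of cells that express a gene and less RNA per cell cannot be told apart.

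Nearly all HOX signal came from the HOXA cluster, and most of that from 2 neighbouring genes. Summed over the cluster, HOXA reached 9.99 ± 0.289 FPKM in Unt, 6.62 ± 0.463 in DOX, 6.94 ± 0.236 in D_DXZ and 24.2 ± 6.41 in D_MgHCF (mean ± SD, n = 3). These sums made up 92.7 to 99.4% of all HOX FPKM in each library. The highest level of a single gene was 21.4 FPKM in HOXA (Hoxa5), against 0.415 in HOXC (Hoxc6), 0.360 in HOXB (Hoxb6) and 0.153 in HOXD (Hoxd13). Hoxa2, Hoxa5 and Hoxa6 were the 3 members with a mean of at least 1 FPKM in any group. In Unt the order of the HOXA genes described here was, by level, Hoxa5 (4.07 FPKM), Hoxa6 (4.06), Hoxa4 (0.523), Hoxa2 (0.375), Hoxa3 (0.220) and Hoxa7 (0.109), and Hoxa9 to Hoxa13 had no read. Hoxa5 and Hoxa6 overlapped in this order, as did the neighbours from Hoxa4 down to Hoxa3, whereas the gap between Hoxa6 and Hoxa4 was beyond the spread of the libraries. Genes with reads thus ended at Hoxa7 in Unt, and Hoxa5 or Hoxa6 was the highest HOX gene in each of the 12 libraries (Hoxa5 in 10 of them).

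**Figure D1:**
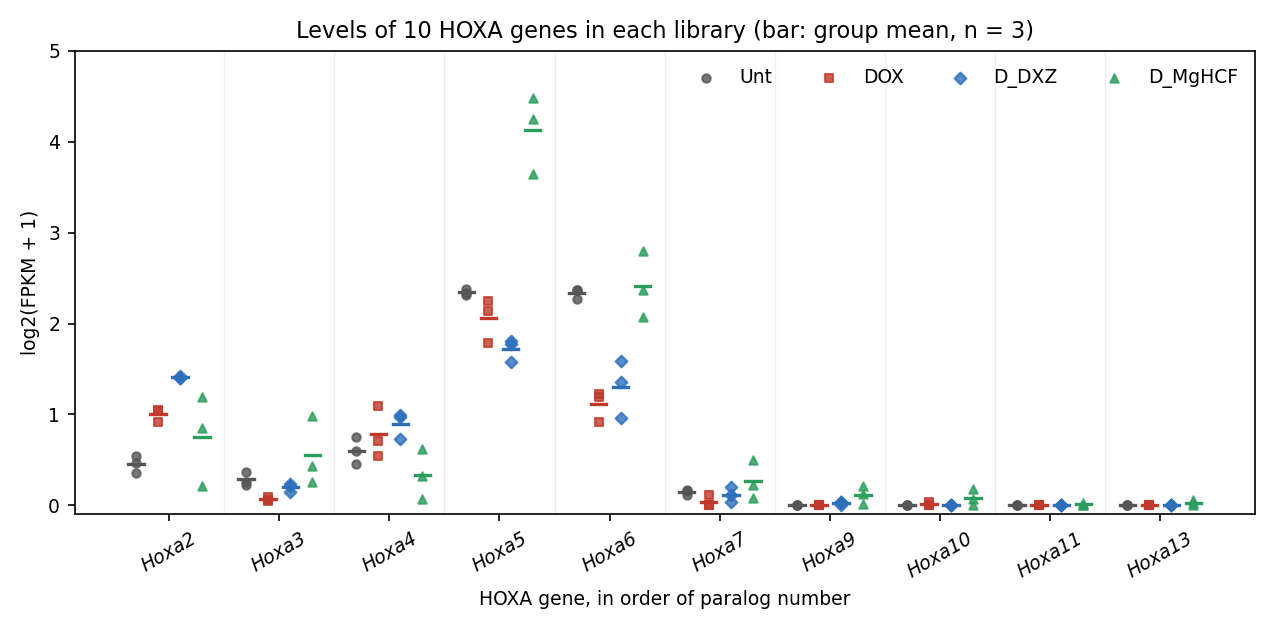
Levels of 10 HOXA genes as log2(FPKM + 1), in order of paralog number, with a point for each library and a bar for the mean of the 3 libraries of a group. Hoxa5 stands far above its neighbours in D_MgHCF, where its libraries reached 18.0, 21.4 and 11.5 FPKM, and Hoxa6 lies lower in DOX and D_DXZ than in Unt and D_MgHCF.

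Hoxa5, a central HOX gene that patterns the neck and upper chest and is needed for lung development, was the member with the largest rise on the log2(FPKM + 1) scale (chr6:52201754-52204587, minus strand, 2 exons). In Unt its level was 4.19, 3.98 and 4.03 FPKM in libraries 1, 2 and 3. It was 3.76, 3.40 and 2.44 FPKM in DOX and 2.51, 1.99 and 2.43 in D_DXZ. In D_MgHCF it was 18.0, 21.4 and 11.5 FPKM. Each D_MgHCF library was above each of the 9 others, and each DOX and D_DXZ library was below each Unt library. Hoxa5 rose 4.17-fold in D_MgHCF relative to Unt, a difference of 1.78 on the log2(FPKM + 1) scale (SE 0.20, limma, adjusted p = 0.000131). Relative to DOX the ratio of the means was 5.30 (difference 2.07, adjusted p = 2.04e-05) and relative to D_DXZ 7.34 (difference 2.40, adjusted p = 1.35e-05). Of the 25044 genes tested, 0.886% had a larger difference between D_MgHCF and DOX and 1.07% a larger one between D_MgHCF and Unt. The difference between DOX and Unt, -0.28 (95% interval -0.73 to 0.16, adjusted p = 0.34), did not pass the test. Hoxa5 fell by 0.62 in D_DXZ relative to Unt (adjusted p = 0.035), a call that was lost without any single library of either group (adjusted p = 0.0563 to 0.116), with voom (adjusted p = 0.0622), without a filter on low values (adjusted p = 0.09) and under quantile normalization (-0.23, adjusted p = 0.576). The rise in D_MgHCF rested on 710, 1021 and 531 reads, against 198, 179 and 185 in Unt, and passed under each alternative that was tried.

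Hoxa6, the next gene in the cluster and a gene of thoracic identity, followed another pattern (chr6:52206288-52208722, minus strand, 2 exons). It had 4.18, 4.15 and 3.84 FPKM in Unt and 1.28, 1.34 and 0.890 in DOX. In D_DXZ its values were 1.56, 2.01 and 0.942 FPKM, and in D_MgHCF 5.94, 3.19 and 4.15. The Unt and D_MgHCF libraries overlapped, and both groups lay entirely above DOX and D_DXZ. Hoxa6 fell in DOX to a level 3.47 times below that of Unt, a difference of -1.23 (SE 0.21, limma, adjusted p = 0.000776). In D_DXZ it fell by 1.04 relative to Unt (adjusted p = 0.00294), and the difference between D_DXZ and DOX was 0.19 (95% interval -0.28 to 0.66, adjusted p = 0.838). In D_MgHCF it was higher by 1.30 than in DOX (ratio of the means 3.78, adjusted p = 0.000486) and by 1.11 than in D_DXZ (adjusted p = 0.00154). Against Unt the D_MgHCF difference was 0.07 (95% interval -0.40 to 0.54, adjusted p = 0.817), an interval that leaves room for a change in either direction. The reads behind these values were 92, 87 and 82 in Unt and 17, 15 and 9 in DOX. These Hoxa6 calls passed under each alternative, with the highest adjusted p of 0.0465 for D_DXZ against Unt under quantile normalization.

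The relation of both genes to each other changed with the treatment. Hoxa5 and Hoxa6 were level in Unt, where the ratio of their FPKM was 0.958 to 1.05. It ranged from 2.55 to 2.93 in DOX, from 0.992 to 2.58 in D_DXZ and from 2.78 to 6.70 in D_MgHCF. DOX and D_MgHCF lay above Unt without overlap, while D_DXZ overlapped with Unt and with DOX. An exact two-sided permutation test of the log2 ratio gave p = 0.1 for DOX against Unt, which is the smallest value that 3 against 3 libraries can give and cannot reach 0.05. The exact p was 0.1 for D_MgHCF against Unt and against D_DXZ as well, 0.2 for D_MgHCF against DOX and for D_DXZ against DOX, and 0.3 for D_DXZ against Unt, a family of 6 comparisons of which none can pass an adjustment. A higher ratio went with a lower Hoxa6 in DOX and with a higher Hoxa5 in D_MgHCF. As a share of all HOX FPKM, Hoxa5 accounted for 38.5 to 41.5% in Unt and 59.7 to 75.7% in D_MgHCF. Because all comparisons of the treated groups with Unt use the same 3 Unt libraries, and those with DOX the same 3 DOX libraries, the values of different comparisons are not independent of each other.

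**Figure D2:**
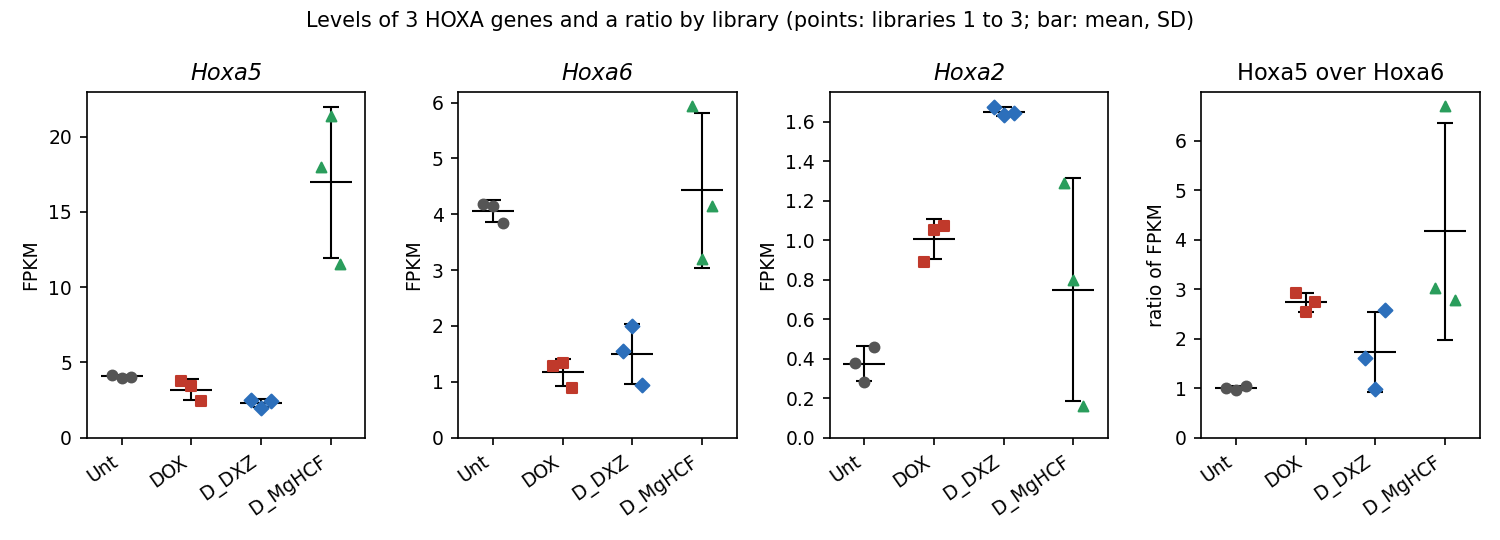
FPKM of Hoxa5, Hoxa6 and Hoxa2 and the ratio of Hoxa5 to Hoxa6 in each library of the 4 groups, with points for libraries 1 to 3 from left to right and the mean with its SD in black. Hoxa5 is highest in the 3 D_MgHCF libraries, Hoxa6 is lowest in DOX and D_DXZ, and Hoxa2 is highest in D_DXZ and spreads from 0.161 to 1.29 FPKM in D_MgHCF.

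Hoxa2, which sets the identity of the second pharyngeal arch and of hindbrain segments, had its highest levels in D_DXZ, where Hoxa6 had fallen (chr6:52162417-52164831, minus strand). It had 0.381, 0.282 and 0.461 FPKM in Unt and 0.891, 1.05 and 1.07 in DOX. It had 1.67, 1.63 and 1.65 FPKM in D_DXZ, and 1.29, 0.797 and 0.161 in D_MgHCF. The levels of Unt, DOX and D_DXZ did not overlap, and those of D_MgHCF spread across all of Unt and DOX and stayed below D_DXZ. Hoxa2 rose in D_DXZ relative to Unt by 0.95 (SE 0.21, ratio of the means 4.41, limma, adjusted p = 0.00442). For DOX against Unt the difference was 0.55 (adjusted p = 0.061) and for D_DXZ against DOX 0.40 (95% interval -0.05 to 0.86, adjusted p = 0.579), neither of which passed. In D_MgHCF Hoxa2 was lower than in D_DXZ by 0.66 (adjusted p = 0.0236), a call lost without any single D_DXZ library (adjusted p = 0.0547 to 0.0561), without a filter, with TPM (-0.30, adjusted p = 0.501) and with summed reads (-0.28, adjusted p = 0.322). D_MgHCF library 3 held 7 reads of Hoxa2, against 48 and 36 in libraries 1 and 2. Without this library Hoxa2 passed the test as higher in D_MgHCF than in Unt (0.56, adjusted p = 0.00456), compared with 0.29 and an adjusted p of 0.282 with it, and the DOX against Unt difference, unchanged at 0.55, also passed in that smaller fit (adjusted p = 0.00287). The D_DXZ call was lost where the FPKM were rescaled to an equal total per library (TPM, 0.68, adjusted p = 0.175) or to the summed reads (0.62, adjusted p = 0.0557). Relative to the median gene with at least 1 FPKM the same difference was 0.97 with the deposited values, 1.78 with TPM and 1.25 with summed reads. On the log2(FPKM + 1) scale a low gene takes up less of a scaling shift than the median gene. These relative values therefore do not restore the lost calls. Exons of Hoxa2 and the readthrough gene Gm28308 share 267 bases, so that reads there could be counted for either.

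Hoxa3, Hoxa4 and Hoxa7 were expressed below 1.2 FPKM in each library. Hoxa3, which acts in the pharyngeal pouches that form thymus and parathyroid, had 0.172, 0.291 and 0.197 FPKM in Unt, 0.0329, 0.0648 and 0.0431 in DOX, 0.103, 0.178 and 0.162 in D_DXZ, and 0.974, 0.353 and 0.196 in D_MgHCF. It was thus lowest in the DOX libraries, which held 3 to 5 reads each, and rose in D_MgHCF relative to DOX by 0.49 (limma, adjusted p = 0.0159; 0.0583 without a filter on low values). Without D_MgHCF library 1 this difference was 0.28. Hoxa4, which shares in the patterning of the neck vertebrae, had 0.374, 0.681 and 0.513 FPKM in Unt, 0.455, 0.636 and 1.14 in DOX, 0.661, 0.957 and 0.987 in D_DXZ, and 0.538, 0.246 and 0.0511 in D_MgHCF. Its D_MgHCF level was lower than in D_DXZ by 0.56 (adjusted p = 0.0235), a call lost with TPM, with summed reads, without a filter, and without D_DXZ library 2 or 3 or D_MgHCF library 2 or 3 (adjusted p = 0.0618 to 0.0716). Hoxa7, a gene of trunk identity, ranged from 0 to 0.414 FPKM and passed no test. On the genome, Hoxa4, Hoxa5 and Hoxa6 lie inside the span of Hoxa3, in its introns, and share no exonic base with it. Exons of Hoxa3 overlap with those of the antisense transcript Hoxaas2 by 503 bases and those of Hoxa7 with Hoxaas3 by 586. Hoxa4 shares 255 exonic bases with the antisense transcript Gm29430. Hoxa3 also shares 437 with Gm29430 and 297 with Hoxaas3. Whether reads were counted by strand is not given in the sources used here, so that Hoxa3, Hoxa4 and Hoxa7 cannot be told apart from these antisense transcripts there. Hoxa5 and Hoxa6 share no exonic base with any annotated neighbour.

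**Figure D3:**
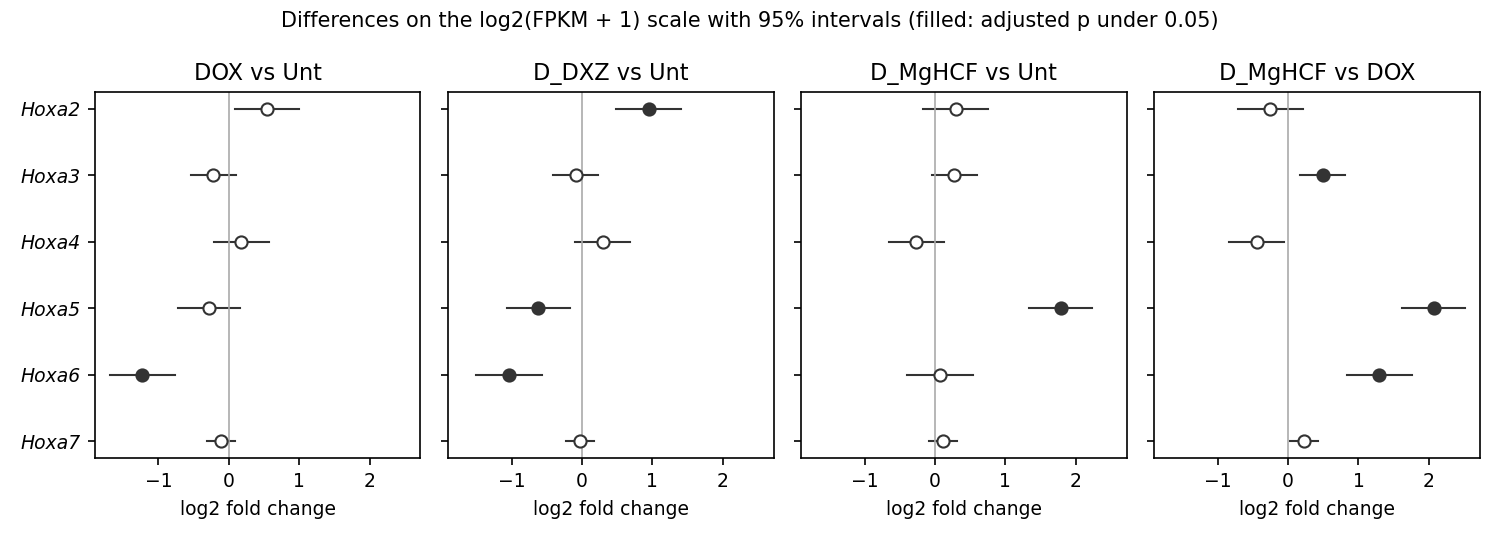
Differences of Hoxa2 to Hoxa7 on the log2(FPKM + 1) scale in 4 comparisons, with the 95% interval of the limma fit as a line and a filled point where the adjusted p is under 0.05. Hoxa6 is the filled gene on the negative side in DOX against Unt (-1.23), and Hoxa5 lies at 1.78 and 2.07 in D_MgHCF against Unt and DOX.

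The posterior HOXA genes and the other 3 clusters were at or near 0 outside D_MgHCF, and low in D_MgHCF as well (at most 0.415 FPKM in a library, Hoxc6). Hoxa9, a posterior gene known from blood progenitors and limbs, had 0 reads in the 3 Unt and the 3 DOX libraries, 0, 2 and 2 in D_DXZ, and 19, 13 and 1 in D_MgHCF. Hoxa10, its neighbour, had 9, 4 and 0 reads in D_MgHCF and 1 read in all other libraries together. Hoxa11 and Hoxa13, which shape the distal limb, had 1 read and 3 reads in D_MgHCF and 0 elsewhere. Hoxa9 was above 0 in at least 3 libraries only through its D_MgHCF reads. Its test against groups at 0 was thus largely set by the filter and does not support a rise. Hoxa9 passed the test as higher in D_MgHCF than in Unt (0.12, limma, adjusted p = 0.0448) and DOX (adjusted p = 0.036), but D_MgHCF library 3 held a single read. Both calls were lost without a filter on low values, under quantile normalization, and without most single libraries, among them each Unt library (adjusted p = 0.0987 to 0.0998 against Unt and 0.0507 against DOX).

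The 29 entries of HOXB, HOXC and HOXD together had 4, 6 and 11 reads in the Unt libraries. They had 5, 16 and 3 reads in DOX and 7, 17 and 8 in D_DXZ. In D_MgHCF they had 86, 50 and 29 reads. All D_MgHCF libraries were thus above all others in reads, although at totals that are small beside the 372 to 394 reads of HOXA in Unt. In summed FPKM the groups overlapped. D_MgHCF library 3 had 0.484 FPKM, below library 2 of DOX (0.541) and library 2 of D_DXZ (0.503). The summed level of HOXB was 0.0219 ± 0.0257 FPKM in Unt, 0.153 ± 0.179 in DOX, 0.123 ± 0.112 in D_DXZ and 0.473 ± 0.371 in D_MgHCF (mean ± SD, n = 3), and without D_MgHCF library 1 the last value was 0.289. HOXC had 0.0907 ± 0.0435 FPKM in Unt, 0.0924 ± 0.0815 in DOX, 0.143 ± 0.0944 in D_DXZ and 0.416 ± 0.215 in D_MgHCF. HOXD had 0, 0.0177 ± 0.0306, 0.04 ± 0.051 and 0.142 ± 0.102 FPKM in the same order (0.0956 in D_MgHCF without library 1). Without library 2 the HOXB sum was 0.0499 FPKM in DOX and 0.0584 in D_DXZ, and that of HOXC 0.0475 and 0.0895. Hoxc6, a thoracic paralog of Hoxa6, was the member of these clusters with the clearest difference. It had 1, 3 and 3 reads in Unt, 0, 4 and 2 in DOX, 2, 0 and 0 in D_DXZ and 21, 11 and 11 in D_MgHCF, and the D_MgHCF libraries did not overlap with any other. Hoxc6 rose in D_MgHCF by 0.27 relative to Unt (limma, adjusted p = 0.011), by 0.24 relative to DOX (adjusted p = 0.0154) and by 0.30 relative to D_DXZ (adjusted p = 0.00444), and each of these calls was lost under quantile normalization. Without a filter on low values those against Unt (adjusted p = 0.0614) and DOX (adjusted p = 0.0799) were lost, and the latter also without DOX library 1 (adjusted p = 0.0602). Hoxb6, the paralog in HOXB, had 13, 18 and 2 reads in D_MgHCF and 1 read in Unt (difference 0.29, adjusted p = 0.0485), and Hoxc13, a posterior gene of hair and nails, had 5, 2 and 3 reads in D_MgHCF and 0 in DOX (0.08, adjusted p = 0.0284). Both rest on few reads. Under quantile normalization the Hoxb6 difference was 0.13 (adjusted p = 0.362) and that of Hoxc13 0.02 (adjusted p = 0.607). The Hoxb6 call was also lost without a filter on low values and without any single Unt library, D_MgHCF library 1 or 2, or library 1 or 3 of DOX or D_DXZ (adjusted p = 0.052 to 0.164), and the Hoxc13 call without any single DOX library or D_MgHCF library 1 (0.0617 to 0.0801).

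Of the 40 entries, 23 had a value above 0 in at least 3 libraries and were tested, 11 were above 0 in fewer libraries, and 6 were listed at 0 in all 12 (Hoxc10, Hoxc11, Hoxc12, Hoxd1, Hoxd3 and the Hoxd4 entry ENSMUSG00000115956). For these 6 a count of 0 allows a level of up to 0.0281 to 0.252 FPKM, taking 3 reads as the limit, for counting error only. A member that entered the test only through reads in D_MgHCF had to differ there, so the counts over the tested members do not describe the whole family. In D_MgHCF, 27, 24 and 20 of the 40 entries had at least 1 read, compared with 10 to 12 in Unt, 8 to 17 in DOX and 11 to 14 in D_DXZ. A total of 16 HOX entries had 0 reads in all 9 libraries without MgHCF, and 10 of them (62.5%) had a read in at least 1 D_MgHCF library, against 29.8% of the 5360 protein-coding genes that were at 0 in the same 9 libraries. By library the share was 7, 7 and 3 of 16 for HOX entries and 16.1%, 16.3% and 13.7% for all such genes. Of the 10 entries, 1 (Hoxb9) had reads in all 3 D_MgHCF libraries. DOX and D_DXZ showed less of this: of 26 HOX entries at 0 in Unt, 6 had a read in DOX and 6 in D_DXZ (23.1% each, against 17.7% and 15.6% of all coding genes at 0 in Unt), and 18 (69.2%, against 42.2%) in D_MgHCF. Genes differ in length and in their level below detection, so these shares are descriptions without a test.

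**Figure D4:**
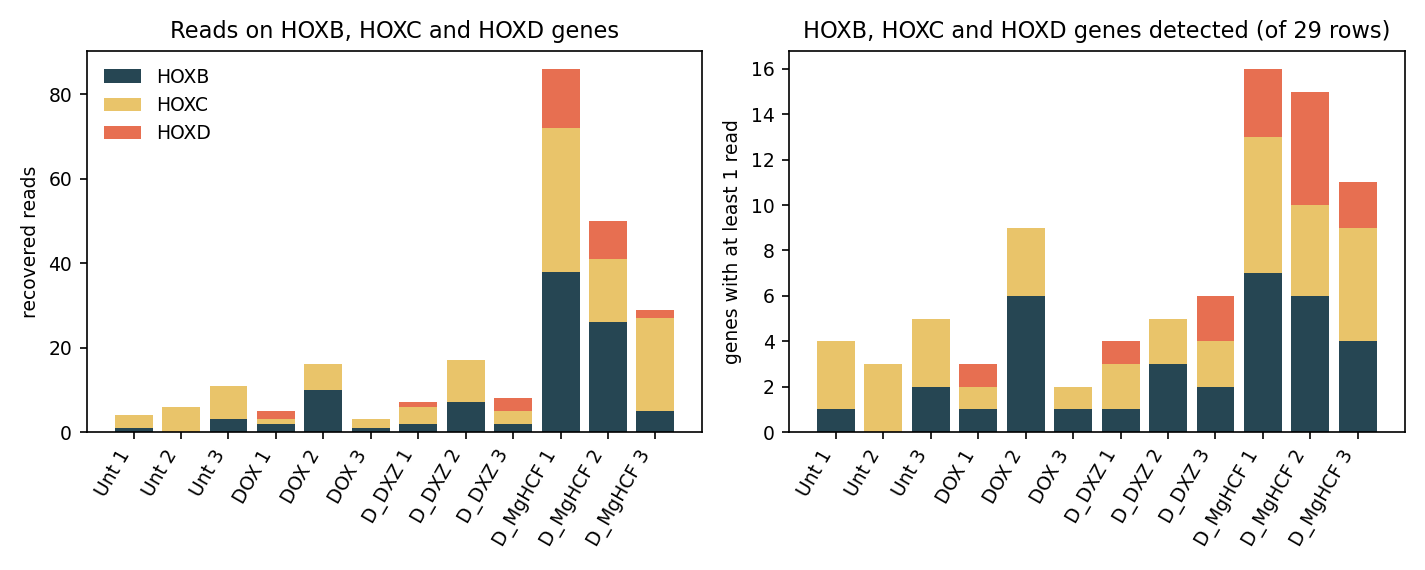
Recovered reads (left) and number of genes with at least 1 read (right) for HOXB, HOXC and HOXD together in each of the 12 libraries, stacked by cluster. The 3 D_MgHCF libraries hold 86, 50 and 29 reads, above the 17 reads of the highest other library. In summed FPKM, which is not drawn, D_MgHCF overlapped with DOX and D_DXZ.

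Counted over the 23 tested members with limma, DOX against Unt gave 1 member that fell (Hoxa6) and 0 that rose, where 19.9% of all tested genes fell and 18.6% rose. At an unadjusted p under 0.05, 1 member was higher (21.0% of all genes), and voom gave 0. In D_DXZ against Unt, Hoxa5 and Hoxa6 fell and Hoxa2 rose, against 18.0% and 15.9% of all genes. In D_MgHCF against Unt, 4 members rose (Hoxa5, Hoxa9, Hoxb6 and Hoxc6) and 0 fell, against 24.3% and 15.7% of all genes, and 0 were lower also at an unadjusted p (18.5% of all genes) and with voom. Hoxa9, counted here and against DOX, entered the test only through its D_MgHCF reads. In D_MgHCF against DOX, 7 members rose (among them Hoxa3, Hoxa5, Hoxa6 and Hoxc6) and 0 fell, against 31.4% and 20.1% of all genes, while 1 was lower at an unadjusted p (21.4% of all genes) and 1 with voom. In D_MgHCF against D_DXZ, 4 rose (among them Hoxa5 and Hoxa6) and 2 fell (Hoxa2 and Hoxa4), against 29.4% and 19.0% of all genes. In D_DXZ against DOX limma called 0 members and 0.0% of all genes, voom called 0 members, and 0 members passed even an unadjusted p under 0.05, which 4.56% of all genes passed as higher and 4.97% as lower. The share of members that rose in D_MgHCF against DOX, 30.4%, was close to that of all genes. The shares that fell, 4.35% in DOX against Unt and 0 in D_MgHCF against Unt or DOX, were below those of all genes. Members at or near 0 in Unt or DOX had little room to fall, and only 3 members reached a mean of 1 FPKM in any group. The lower shares therefore do not describe the family. The median difference of the members in D_MgHCF against DOX was 0.07, and that of all tested genes 0.07. These counts leaned on D_MgHCF library 3: without it 12 members rose against Unt, 11 against DOX and 12 against D_DXZ, while 33.4%, 38.0% and 36.2% of all genes did.

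Counted by whether the libraries of 2 groups overlap, the members gave a similar picture. In DOX against Unt, 5 members were lower in all libraries without overlap (among them Hoxa3, Hoxa5 and Hoxa6) and 1 was higher (Hoxa2), against 26.6% and 25.3% of all tested genes. In D_DXZ against Unt 3 were lower and 1 was higher, against 26.9% and 23.5%. In D_MgHCF 8 were higher and 0 lower than Unt (29.6% and 19.3% of all genes), 8 higher and 0 lower than DOX (32.5% and 20.7%), and 8 higher and 2 lower than D_DXZ (30.6% and 19.8%). In D_DXZ against DOX, Hoxa2 and Hoxa3 were higher in all libraries and 0 members were lower, against 7.66% and 8.64% of all genes.

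The scaling of the libraries also enters the counts. The deposited FPKM contain a median-ratio factor, which relative to the reads on genes lay between 1.32 and 1.38 in Unt and between 1.26 and 1.43 in D_MgHCF, but between 0.647 and 0.784 in DOX and between 0.747 and 0.892 in D_DXZ. With values scaled to the summed reads the median gene with at least 1 FPKM moved by -0.69 in DOX against Unt and by 0.67 in D_MgHCF against DOX, and with TPM by -1.18 and 0.99. With TPM 4 members fell and 0 rose in DOX against Unt, where 40.8% of all genes fell and 4.4% rose. In D_MgHCF against D_DXZ 13 rose and 0 fell with TPM, where 51.1% of all genes rose. Relative to the median gene, the difference of Hoxa6 in DOX against Unt was -1.28 with the deposited values, -1.15 with summed reads and -1.49 with TPM. That of Hoxa5 in D_MgHCF against Unt was 1.86, 1.92 and 2.04, and that of Hoxa5 in DOX against Unt -0.33, -0.32 and -0.39. Hoxa5 in DOX was called lower than Unt with summed reads (-1.01, adjusted p = 0.00316) and with TPM, and had a difference of 0.17 with quantile normalization.

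Within 100 kb of the clusters lay 79 further genes, of which 23 were tested. The HOXA cluster contains transcripts that run opposite to the HOX genes. Gm15050, an antisense transcript within the span of Hoxa3 that shares no exonic base with it (chr6:52172881-52174059, plus strand), had 2.16, 3.70 and 3.78 FPKM in Unt, 5.25, 4.09 and 2.66 in DOX, 2.69, 3.04 and 2.31 in D_DXZ, and 11.04, 9.82 and 3.84 in D_MgHCF. All D_MgHCF libraries were above those of Unt, and the difference was 1.05 (limma, adjusted p = 0.0305). Hoxaas2, between Hoxa2 and Hoxa3, had 0.284, 0.385 and 0.414 FPKM in Unt, 1.10, 1.07 and 0.823 in DOX, 1.09, 2.25 and 2.16 in D_DXZ, and 2.75, 1.94 and 0.303 in D_MgHCF. It rose in D_DXZ relative to Unt by 1.03 (adjusted p = 0.0362), and its D_MgHCF libraries spread across those of all other groups (0.84 relative to Unt, adjusted p = 0.0706). Hotairm1, another antisense transcript of the cluster, had 1.51 to 4.05 FPKM and passed no test. Beside HOXD, Mtx2, a mitochondrial import protein, rose in DOX relative to Unt by 0.78 (adjusted p = 0.00836) and fell in D_MgHCF by 0.76 relative to Unt (adjusted p = 0.0125), and Lnpk, a protein of the endoplasmic reticulum, rose by 0.35 in DOX (adjusted p = 0.0244) and fell by 0.45 in D_MgHCF (adjusted p = 0.00828). HOXD itself stayed at or near 0 in these libraries. The microRNA genes of the clusters (Mir10a, Mir10b, Mir196a-1, Mir196a-2, Mir196b and Mir615) were listed at 0, in libraries made from poly(A) RNA. Over the neighbours, 5 rose and 0 fell in DOX against Unt (1 was lower at an unadjusted p under 0.05), and 3 rose and 5 fell in D_MgHCF against DOX. The 21.7% that rose in the first comparison and the 21.7% that fell in the second are near the 18.6% and 20.1% of all tested genes. The 0 that fell in the first and the 13% that rose in the second were below the 19.9% and 31.4% of all tested genes.

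The partners of HOX proteins were expressed throughout and most fell in the groups with doxorubicin. Of 9 PBX, MEIS and PKNOX genes, all tested, 6 fell and 1 rose in DOX against Unt. The same counts were found in D_DXZ, and 5 fell and 1 rose in D_MgHCF. Among the 13266 genes with a mean of at least 1 FPKM in any group, 31.9% fell and 32.8% rose in DOX against Unt. In a fit of the 12434 genes with at least 1 FPKM in at least 3 libraries, 34.8% fell and 32.8% rose in D_DXZ against Unt. In D_MgHCF against Unt the shares in that fit were 29.9% and 24.6%. Meis1, which binds DNA beside HOX and PBX proteins, had 2.63, 2.36 and 2.44 FPKM in Unt, 0.475, 0.437 and 0.369 in DOX, 0.953, 0.638 and 0.441 in D_DXZ, and 2.03, 1.51 and 1.203 in D_MgHCF. Its D_MgHCF libraries stood between Unt and the other treated groups, with a difference of -1.28 for DOX against Unt (limma, adjusted p = 8.78e-05) and 0.84 for D_MgHCF against DOX (adjusted p = 0.00117). Pknox2 fell by 1.44 in DOX (adjusted p = 1.55e-05) and by 1.22 in D_MgHCF relative to Unt (adjusted p = 8.29e-05). Pbx2, the most abundant of these genes, had a mean of 10.4 FPKM in Unt and of 4.55 in DOX, and 5.63 and 6.54 FPKM in D_DXZ and D_MgHCF, with a fall of 1.04 in DOX (adjusted p = 8.7e-05). Pknox1 had 5.70, 8.31 and 15.0 FPKM in D_MgHCF against 3.09, 1.55 and 1.61 in DOX, a rise of 1.73 (adjusted p = 0.000625). In D_MgHCF against DOX, 4 of the 9 rose and 1 fell, where 36.6% and 35.8% of the genes at this level did.

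Among 68 known regulators of HOX genes 63 were tested, and in DOX against Unt 36 fell and 6 rose. The share that fell, 57.1%, compares with 31.9% among the 13266 genes with a mean of at least 1 FPKM. In D_MgHCF against DOX 33 rose (52.4%) and 13 fell (20.6%), compared with 36.6% and 35.8% of the genes at that level. The same 2 shares for the Polycomb list below were 48.1% and 22.2%, and for the Trithorax and MLL list 47.1% and 17.6%. Against Unt 9 of the regulators rose (14.3%) and 25 fell (39.7%) in D_MgHCF, compared with 24.3% and 15.7% of all tested genes. In the fit of the 12434 genes with at least 1 FPKM in at least 3 libraries, 24.6% rose and 29.9% fell. Of the 27 Polycomb genes, which keep HOX clusters silent, 17 fell and 2 rose in DOX against Unt, and 13 rose and 6 fell in D_MgHCF against DOX. Rbbp7, a histone-binding subunit found in Polycomb and other complexes, had 85.2, 85.3 and 84.8 FPKM in Unt, 277, 343 and 356 in DOX, and 77.6, 54.3 and 41.0 in D_MgHCF, and differed by 1.91 between DOX and Unt (limma, adjusted p = 3.96e-05). Of 17 tested Trithorax and MLL genes, which keep HOX genes active, 12 fell and 3 rose in DOX against Unt, and 8 rose and 3 fell in D_MgHCF against DOX. Psip1, which tethers MLL complexes to chromatin, was among those that rose in DOX (1.46, adjusted p = 0.000141), and was lower in D_MgHCF than in DOX by 2.49 (adjusted p = 6.66e-06). Of 7 chromatin loop genes 3 fell and 1 rose in DOX against Unt. Ctcf, which insulates active from silent parts of the HOX clusters, fell from 22.7, 22.5 and 23.1 FPKM in Unt to 4.51, 3.21 and 3.65 in DOX (difference -2.32, adjusted p = 1.28e-05), and had 7.89, 7.07 and 9.53 in D_MgHCF. The cohesin subunit Rad21, the most abundant gene of the list, had 512 FPKM in Unt, 429 in DOX and 260 in D_MgHCF.

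Retinoic acid switches on anterior HOX genes in embryos, and its receptors, enzymes and binding proteins were examined together with the CDX factors. Of 16 such genes 12 were tested, and of these 10 rose and 0 fell in D_MgHCF against DOX, and 8 rose and 1 fell against Unt. Of all tested genes, 31.4% rose and 20.1% fell in the first of these comparisons and 24.3% and 15.7% in the second. In DOX against Unt 4 fell and 0 rose, where 19.9% of all tested genes fell and 18.6% rose. At an unadjusted p under 0.05, limma gave 0 lower in D_MgHCF against DOX and 1 higher in DOX against Unt. The receptor Rara, named after its values were seen, had 6.59, 6.85 and 7.47 FPKM in Unt, 4.47, 2.57 and 2.18 in DOX, 2.75, 2.83 and 2.08 in D_DXZ, and 14.9, 12.2 and 15.9 in D_MgHCF. As for Hoxa5, its D_MgHCF libraries lay above Unt, and Unt above DOX and D_DXZ, which overlapped each other. Rara was higher in D_MgHCF than in Unt by 0.94 (limma, adjusted p = 0.00367) and than in DOX by 1.95 (adjusted p = 2.27e-05). Cyp26b1, an enzyme that breaks down retinoic acid and a known target of it, also named after its values were seen, had 0.0612 to 0.134 FPKM in Unt and 14.8, 7.23 and 1.34 in D_MgHCF (difference 2.61, adjusted p = 0.00355). Whether these genes take part in the HOX values was not tested.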

How the data were processed

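The 12 libraries, 3 in each group, hold poly(A) RNA. The submitters' processing notes name HISAT2 2.0.5 and the builds GRCm38 and mm10. The counting program, its strand setting and the annotation release are not given in the sources used here. The authors deposited FPKM values of 54345 mouse genes, and 38 of the 40 HOX entries had the coordinates of GENCODE M21 (both Hoxd4 entries differed). FPKM multiplied by gene length was a whole multiple of 1 step per library for 100% of values (tolerance 0.01), which gave whole reads. The 25044 genes above 0 in at least 3 libraries entered a single limma model (version 3.58.1, R 4.3.3) of log2(FPKM + 1) with all 4 groups, a prior that follows the mean level, and no covariate, from which 6 comparisons were taken. Exact permutation tests were two-sided. A fold change on this scale understates the change of low genes. A gene was called at a Benjamini-Hochberg adjusted p under 0.05 over all genes tested. Members, gene lists and rules were chosen with earlier results of these data known. Members with a group mean of at least 1 FPKM were described in full; others were named where called or by cluster. From each further list up to 4 genes were named: the largest differences among called genes in DOX against Unt or D_MgHCF against DOX, and the most abundant gene; neighbours could be named freely. In simulated data for DOX against Unt (25044 genes), 98 of 100 genes with a planted log2 change of 2 and 54 of 100 with a change of 1 were called. The changes were planted only in genes with a mean of at least 1 FPKM, with the same dispersion for all genes and groups. These shares do not hold for members below that level, and the wider spread of D_MgHCF was not simulated. Near-identical transcripts were searched with BLAST 2.17.0 (at least 95% identity over 150 bases), and the matches were to genes that overlap on the genome. Promoter sequences came from RefSeq. Alternatives were a pseudocount of 0.1, other filters, thresholds and scalings, voom on the recovered reads, a replicate block, and each library left out. The main test was not a count model because the deposited unit is FPKM, and voom on the recovered reads served only as an alternative. The values of 1 HOXA member are not reported here, and it is included in counts and sums.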

Additional observations from a re-analysis of the deposited data

How the results depend on the processing

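The rise of Hoxa5 in D_MgHCF against Unt, DOX and D_DXZ and the lower Hoxa6 in DOX and D_DXZ kept their direction and passed the threshold under each alternative (a minimum of 2-fold included), and no called difference of a named member changed sign. Of 627 values of named members under alternatives, 530 stayed on their side of the threshold, 87 fell below it and 10 rose above it.

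Counts of members changed more. Members higher in DOX against Unt numbered 1 in place of 0 with a minimum of 1 FPKM, quantile normalization or unadjusted p, and lower members 4 with TPM, 3 with summed reads and 2 with voom in place of 1. All genes tested in the same settings rose in shares of 37.1%, 16.7% and 21.0%, and fell in shares of 40.8%, 33.2% and 19.7%. In D_DXZ against Unt, 0 were higher with TPM, summed reads or a 2-fold minimum and 3 with voom, and 1 was lower without a filter, with quantile normalization, voom or a 2-fold minimum. Shares of all genes that rose were 3.6% with TPM, 7.6% with summed reads and 17.7% with voom. Those that fell were 7.1% without a filter, 14.6% with quantile normalization and 18.0% with voom. The share of all genes at a 2-fold minimum is not given here. In D_MgHCF against Unt, 1 was higher with a minimum of 1 FPKM, no filter, quantile normalization or a 2-fold minimum, 8 with TPM or voom and 7 at an unadjusted p. Of all genes, 24.6% rose with that FPKM minimum, 7.7% without a filter, 17.0% with quantile normalization, 26.6% with TPM and 28.5% with voom. In D_MgHCF against DOX, 2 were higher with a minimum of 1 FPKM or 2-fold, 4 without a filter and 3 with quantile normalization, and 2 were lower with quantile normalization and 1 with voom or an unadjusted p. Here 35.9% of all genes rose with the FPKM minimum, 11.4% without a filter and 18.5% with quantile normalization. With quantile normalization 19.6% fell, with voom 20.4% and at an unadjusted p 21.4%. In D_MgHCF against D_DXZ, 2 were higher with a minimum of 1 FPKM, quantile normalization or a 2-fold minimum, 13 with TPM, 9 with summed reads and 7 at an unadjusted p, and 1 was lower with a minimum of 1 FPKM and 0 without a filter, with TPM, summed reads or a 2-fold minimum. All genes rose in shares of 32.7% with the FPKM minimum, 18.3% with quantile normalization, 51.1% with TPM and 45.6% with summed reads. They fell in shares of 37.6% with that minimum, 7.8% without a filter, 6.2% with TPM and 9.5% with summed reads. A higher filter leaves fewer members to test (3 of 23). For the others the cause was not tested.

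With 1 library left out, members higher numbered 0 to 1 in DOX against Unt, 1 to 2 in D_DXZ against Unt, 2 to 12 in D_MgHCF against Unt, 4 to 11 against DOX and 4 to 12 against D_DXZ. Members lower numbered 1 to 2 in DOX against Unt, 1 to 3 in D_DXZ against Unt, 0 to 2 in D_MgHCF against DOX and 0 to 2 against D_DXZ. The highest counts of members higher in D_MgHCF came without D_MgHCF replicate 3. Over all tested genes, 16.4 to 20.9% rose in DOX and 13.6 to 18.5% in D_DXZ against Unt. In D_MgHCF 16.3 to 33.4% rose against Unt, 24.3 to 38.0% against DOX and 23.0 to 36.2% against D_DXZ. Shares that fell were 17.2 to 22.8% in DOX and 14.5 to 21.7% in D_DXZ against Unt. For D_MgHCF they were 18.2 to 21.2% against DOX and 17.1 to 20.4% against D_DXZ.

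The replicate number as a block gave 8 members higher in D_MgHCF against DOX (7 without it), 4 against D_DXZ and 3 against Unt (4 without it, Hoxa9 being lost at an adjusted p of 0.0612). With the block 30.5%, 28.4% and 23.0% of all genes rose in these comparisons. Same-numbered libraries correlated over 0.1 in 2 of 18 pairs (-0.314 to 0.306, as deviations from the group means). Differently numbered libraries were not compared in this way, so whether the numbers pair the samples cannot be told.

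Summed levels rescaled to TPM were 44.6 in Unt, 11.5 in DOX, 13.6 in D_DXZ and 96.2 in D_MgHCF for HOXA, 0.0965 in Unt and 1.78 in D_MgHCF for HOXB, 0.401 in Unt, 0.277 in D_DXZ and 1.62 in D_MgHCF for HOXC, and 0.541 in D_MgHCF for HOXD. Without Hoxa5, HOXA summed to 5.92, 3.42, 4.63 and 7.23 FPKM in these groups, and without Hoxc6, HOXC summed to 0.156 in D_MgHCF. Depth limits the posterior HOXA genes and the HOXB, HOXC and HOXD genes, which had at most 21 reads in a library.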
